A study of Mus musculus with 32 samples.

Results

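Immediate early genes were followed in subcutaneous white fat of mice after weight loss surgery. The 9 genes were taken by name from the deposited table of 18124 genes: the Fos family members Fos and Fosb, the Jun family members Jun and Junb, the zinc finger factor gene Egr1, the nuclear receptor gene Nr4a1, and Ier2, Ier3 and Zfp36. All 9 names were found once and all 9 had a mean value of at least 10, the minimum for testing, which 15588 genes passed.

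C57BL/6J mice had vertical sleeve gastrectomy (VSG), in which the greater part of the stomach is cut away, or sham surgery, and fat was collected on day 9. Separate animals were sampled at ZT1, ZT7, ZT13 and ZT19 (zeitgeber time, in hours from light onset), 4 per surgery at each of the 4 times, which gave 16 libraries per surgery and 32 in all. Both surgeries shared the same feeding: liquid diet before the operation with an overnight fast, liquid diet again in the first days after it, and then a choice that included a high-fat diet. The labels give a weight loss for each animal without a unit, with a lowest, median and highest value of 10.6, 16.0 and 23.1 after VSG and of 2.15, 5.24 and 8.96 after sham surgery. The ranges did not overlap, so surgery and weight loss cannot be told apart between the surgeries.

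Immediate early genes are transcribed within minutes of a stimulus without new protein synthesis, mainly through factors such as SRF with its ELK partners and CREB that are already in the cell and are switched on by kinases. Fos and Jun proteins pair into the AP-1 transcription factor. Most of their transcripts are short-lived, partly because proteins such as ZFP36 bind AU-rich elements and speed their decay.

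The promoters of genes whose levels differed with surgery (Ier3, Nr4a1) or with weight loss (Junb) are shown for description. Each is the 250 bases before the RefSeq start in build GRCm38.p6. A promoter entry was found for 7 of the 9 genes, and those of Ier2 and Egr1 are not analysed here. Capitals mark the letters TGACG (the cAMP response element core, bound by CREB), GGGCGG (the GC box) and TATAA, each on either strand.
Ier3: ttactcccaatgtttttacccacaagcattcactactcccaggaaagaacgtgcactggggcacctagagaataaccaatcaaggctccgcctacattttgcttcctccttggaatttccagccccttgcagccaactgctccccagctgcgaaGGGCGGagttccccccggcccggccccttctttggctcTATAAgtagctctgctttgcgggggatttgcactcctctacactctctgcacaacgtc
Nr4a1: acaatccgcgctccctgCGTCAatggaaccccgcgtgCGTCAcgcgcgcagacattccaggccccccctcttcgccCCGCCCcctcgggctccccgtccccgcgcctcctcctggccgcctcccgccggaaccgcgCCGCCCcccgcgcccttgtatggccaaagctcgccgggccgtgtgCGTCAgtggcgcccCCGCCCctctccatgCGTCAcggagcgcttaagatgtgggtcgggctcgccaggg
Junb: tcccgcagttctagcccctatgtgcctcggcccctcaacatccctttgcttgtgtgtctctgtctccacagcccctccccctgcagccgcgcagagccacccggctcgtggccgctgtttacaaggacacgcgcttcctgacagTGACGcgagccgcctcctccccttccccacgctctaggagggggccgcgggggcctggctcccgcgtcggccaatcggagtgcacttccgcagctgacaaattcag
The Ier3 stretch lies at chr17:35821463-35821712 on the plus strand, the Nr4a1 stretch at chr15:101266596-101266845 on the plus strand and the Junb stretch at chr8:84978749-84978998 on the minus strand. The end of the Ier3 stretch lies within the gene as the deposited data place it, with a start at 35821684. The Nr4a1 stretch held 4 TGACG matches and the Junb stretch 1, while Ier3 held 0. Among the other promoters Fos held 2, Fosb 1, and Jun and Zfp36 held 0. Of 32851 promoters of the same length 17.8% held at least 1 such match and 0.137% held 4 or more. TATAA was found in Ier3 and Fos and in 22.8% of all promoters. The AP-1 letters TGANTCA were in none of the 7, against 6.75% of all promoters, and a CArG box, the element bound by SRF, was in Zfp36 alone, against 1.47%. These matches describe the letters in this window and not binding, and sites farther upstream were not searched.

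Sequencing gave 15.7 to 37.2 times 1e6 reads assigned to genes per library. Every value below is the deposited normalized value unless per kilobase is said, fold changes are VSG over sham, in log2 units of value + 1 with their SE, and adjusted p-values come from limma over all genes tested. Adipocyte markers were abundant, with sums over the 10 genes of 763443 to 1824805 in VSG libraries and 871529 to 1641374 in sham libraries. Markers of lymph node B cells stood apart in 5 libraries, 4 after VSG and 1 after sham surgery, and those of skeletal muscle in 7, 5 after VSG and 2 after sham surgery. In bulk tissue, fewer cells of a type and less RNA per cell cannot be told apart.

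Divided by exon length, Zfp36 was the most abundant with 679.7 ± 145 per kilobase (SD, n = 32), a level above that of 89.3% of the genes of the table. Jun had 584 ± 173 per kilobase, Ier2 559 ± 205 and Junb 411 ± 300. Ier3 followed with 235 ± 97.8 per kilobase, Egr1 with 221 ± 82.9, Fos with 204 ± 114 and Nr4a1 with 149 ± 52.4. Fosb was far lower at 13.6 ± 7.98 per kilobase. In this order the ranges of mean ± SD of neighbours overlapped, except for Nr4a1 and Fosb. Reads per library ranged from 34 to 227 for Fosb and from 1371 to 3858 for Zfp36, so Fosb has the least depth. Jun overlaps the antisense gene Junos, and Zfp36 overlaps another gene on the opposite strand. No strand setting is stated, so reads of these overlaps cannot be told apart, and Junos was 0.13 ± 0.11 over all times and not called.

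The first comparison asked which of these genes differed between the surgeries over all times. Ier3 and Nr4a1 were higher after VSG, and the other 7 members were not called. Across all genes tested 39.2% were called, 18.3% higher and 20.9% lower, so 2 of 9 higher is a share near that background and not a result about these genes as a set.

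Ier3 encodes a small protein induced by growth factors and stress that modulates cell survival and NF-kappaB and ERK signalling (ENSMUSG00000003541, chr17:35821684-35822923, plus strand, mm10). Its lowest, median and highest values were 197, 301 and 635 in the VSG libraries, against 117, 222 and 279.8 in the sham libraries. VSG animals averaged 326 ± 122 and sham animals 206 ± 52.4 (n = 16 each, ± SD), 1.55 times as high (log2 fold change 0.63 ± 0.12, adjusted p = 0.00021). The highest sham library lay below the VSG median, and the groups overlapped at the low end of the VSG range.

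Nr4a1 encodes an orphan nuclear receptor, NUR77, induced by cAMP and other signals and studied for its part in energy metabolism (ENSMUSG00000023034, chr15:101266846-101274792, plus strand). It had a lowest, median and highest value of 271, 549 and 969 in the VSG libraries and of 249, 369.6 and 648 in the sham libraries. VSG animals averaged 569 ± 177 and sham animals 417 ± 135, 1.37 times as high after VSG (0.45 ± 0.13, adjusted p = 0.0062). The ranges overlapped over most of their length.

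**Figure D1:**
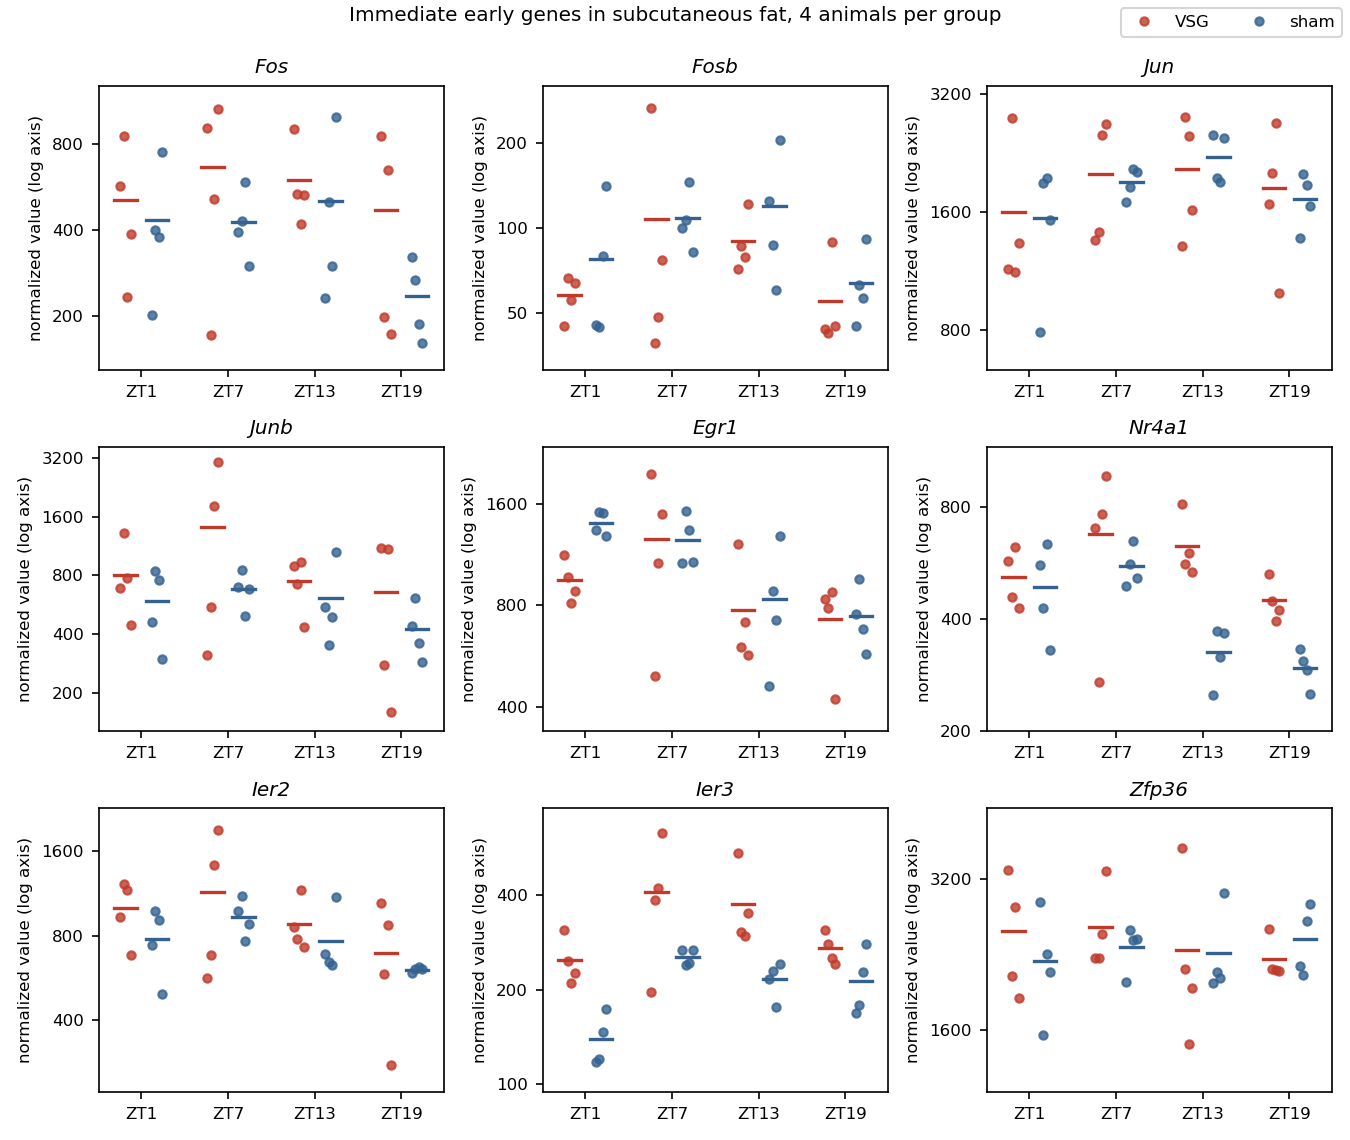
Normalized value of each of the 9 immediate early genes in each animal (points) by time, VSG left of sham, with the group mean as a bar, on a log axis. Ier3 after VSG lies above sham at ZT1 and ZT13 with no overlap, and Nr4a1 does at ZT13 and ZT19.

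Among the AP-1 members, Fos (ENSMUSG00000021250, chr12:85473890-85477273, plus strand) averaged 561 ± 291 after VSG and 401 ± 223 after sham surgery, a log2 fold change of 0.44 ± 0.27 that was not called (adjusted p = 0.21). Junb (ENSMUSG00000052837, chr8:84976909-84978748, minus strand), whose protein can restrain other Jun proteins, averaged 909 ± 707 after VSG and 577 ± 222 after sham surgery (0.40 ± 0.29, adjusted p = 0.28). Jun (ENSMUSG00000052684, chr4:95049034-95052222, minus strand) averaged 1876 ± 678 after VSG and 1848 ± 406 after sham surgery (-0.03 ± 0.16, adjusted p = 0.90). Fosb (ENSMUSG00000003545, chr7:19302696-19310051, minus strand), a less abundant relative of Fos, averaged 77.4 ± 55.1 after VSG and 92.3 ± 44.4 after sham surgery (-0.31 ± 0.22, adjusted p = 0.27). The highest Fosb value of all libraries, 266, was that of VSG replicate 1 at ZT7, and without that library Fosb was called lower after VSG (-0.45, adjusted p = 0.046). The 95% intervals of these log2 fold changes were -0.13 to 1.00 for Fos, -0.20 to 1.00 for Junb, -0.35 to 0.30 for Jun and -0.76 to 0.14 for Fosb, so changes of about the size seen for Nr4a1 lie within those of Fos and Junb.

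Egr1 (ENSMUSG00000038418, chr18:34859823-34864984, plus strand), a zinc finger factor read as a marker of ERK signalling, averaged 926 ± 392 after VSG and 1059 ± 350.3 after sham surgery (-0.22 ± 0.16, adjusted p = 0.28). Ier2 (ENSMUSG00000053560, chr8:84661331-84662852, minus strand), an immediate early nuclear protein gene, averaged 930.1 ± 386 after VSG and 771 ± 194 after sham surgery (0.19 ± 0.17, adjusted p = 0.38). Zfp36 (ENSMUSG00000044786, chr7:28376784-28380253, minus strand), which encodes tristetraprolin, averaged 2404 ± 603 after VSG and 2313 ± 393 after sham surgery (0.04 ± 0.11, adjusted p = 0.82).

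**Figure D2:**
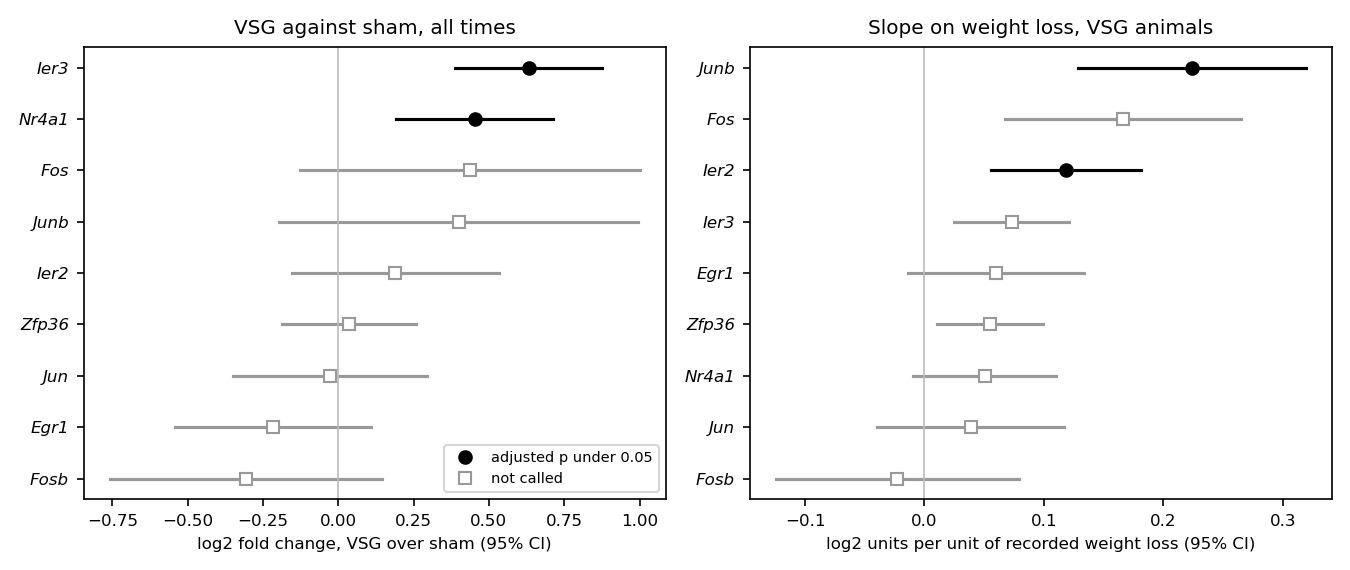
Left, log2 fold change VSG over sham over all times, and right, slope of log2 value on recorded weight loss in the 16 VSG animals, for each of the 9 genes with 95% confidence intervals; filled circles have an adjusted p under 0.05 over all genes. Ier3 and Nr4a1 are filled on the left, Junb and Ier2 on the right.

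Both calls moved with markers of immune cells. All 11 neutrophil markers and all 12 macrophage markers were higher after VSG. Summed neutrophil markers had a lowest, median and highest value of 739, 4242 and 19976 in VSG libraries and of 324, 656 and 1365 in sham libraries. Summed macrophage markers were 33440, 96093 and 175126 in VSG libraries and 31047, 41969 and 125355 in sham libraries. With the mean of the macrophage list as a covariate, Ier3 was 0.40 (adjusted p = 0.055), Nr4a1 0.31 (adjusted p = 0.19), and Egr1 was lower after VSG (-0.57, adjusted p = 0.038). What part these cells have in the Ier3 and Nr4a1 values was not tested. After the 5 libraries with high B cell markers were left out Nr4a1 was 0.40, and after the 7 with high muscle markers were left out 0.40. In the same fits Ier3 was 0.57 and 0.67. The first fit leaves VSG replicate 2 alone at ZT1, and the second leaves VSG replicate 3 alone at ZT19. A lone animal then stands for its group, so calls of these fits are not read.

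Related genes were counted by role over all times, against the 18.3% of all genes called higher and 20.9% called lower. The list counts of both directions together lie near or below the 39.2% called in all and are not results about the lists. By direction, every related list had a share above the background among its higher or its lower genes. The secreted and cell surface list lay farthest above it, with 4 of 9 genes lower against that 20.9%. Each list has few genes, and none was tested as a set. Of 8 other AP-1 and bZIP partners 2 were higher and none lower: Atf3, a stress-induced partner (808 ± 408 after VSG and 454 ± 187 after sham surgery, 1.68-fold), and Batf (2.26-fold). Of 15 other immediate early transcription factors 4 were higher and 2 lower. Among these, Ier5 rose 1.76-fold (0.81 ± 0.19) and Nr4a3, a relative of Nr4a1, rose 1.63-fold (0.71 ± 0.20), and Bhlhe40 fell 1.36-fold (-0.45 ± 0.18) and Klf6 1.16-fold. Of 21 feedback inhibitors 5 were higher, led by Socs3, an inhibitor of cytokine signalling (1.94-fold), and Dusp5, a phosphatase that acts on ERK (1.67-fold). Another 4 were lower, led by Gadd45b (1.69-fold) and Spry2, an inhibitor of receptor tyrosine kinase signalling (1.30-fold). Of 18 upstream kinases and factors 3 were higher, led by Rps6ka1 (1.57-fold) and Mkl2 (1.15-fold), and 5 lower, led by Rps6ka3 (1.27-fold) and Elk1 (1.23-fold). Of 9 rapidly induced secreted and cell surface genes 4 were lower, including Ctgf (2.02-fold), and none higher. Of 12 heat shock genes 3 were lower and none higher, including Hspb1 (1.25-fold) and Bag3 (1.16-fold). The median log2 fold change was -0.02, 0.23, 0.14, 0.03, -0.33 and -0.05 in these 6 lists in the order named, against 0.01 over all genes.

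Time by time, the number of called members was 1 of 9 at ZT1, where 5.52% of all genes were called (1.17% higher, 4.34% lower), 0 at ZT7 (5.09%, with 1.73% higher and 3.36% lower), 2 at ZT13 (9.94%, with 4.21% higher and 5.72% lower) and 0 at ZT19 (0%), where no gene was called at an adjusted p under 0.05 although 1072 had an unadjusted p under it. Ier3 at ZT1 was 209.6, 226, 247 and 310.5 in VSG libraries, against 117, 120.0, 146 and 174 in sham libraries, with no overlap (0.83 ± 0.24, adjusted p = 0.0397). At ZT13 it was 297, 305, 352 and 549 in VSG libraries and 176, 217, 229.9 and 242 in sham libraries, again with no overlap (0.76 ± 0.24, adjusted p = 0.0423). At ZT7 it was 197, 387, 424 and 635 in VSG libraries, against 240.1, 243, 268 and 268 in sham libraries and was not called (0.57 ± 0.24, adjusted p = 0.15). That value was 0.32 without VSG replicate 4 and 0.88 without VSG replicate 1, where it was called (adjusted p = 0.0097). At ZT19 the log2 fold change was 0.37 ± 0.24. Leaving out any 1 of 5 of the 8 libraries at ZT1 ended the Ier3 call there (adjusted p up to 0.12), as did leaving out any 1 of 7 of the 8 libraries at ZT13 (adjusted p up to 0.19). At ZT1, VSG replicates 1, 3 and 4 and sham replicate 1 had high B cell markers. High muscle markers were found in VSG replicate 2 and sham replicate 4 of that time. With both lists as covariates Ier3 was not called at ZT1 or at ZT13.

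Nr4a1 at ZT13 was 537, 562, 604 and 814 in VSG libraries, against 249, 316, 367 and 373 in sham libraries, with no overlap (1.92-fold, 0.94 ± 0.25, adjusted p = 0.0240). At ZT19 it was 396, 424, 447 and 530.1 in VSG libraries and 251, 292, 309 and 332 in sham libraries, also with no overlap, and was not called (0.60 ± 0.25, adjusted p = 0.68). At ZT1 and ZT7 the groups overlapped (0.12 ± 0.25 and 0.15 ± 0.25). The ZT13 call of Nr4a1 was lost without replicate 1 or 3 of the VSG group or replicate 1 or 3 of the sham group (0.81, 0.96, 0.82 and 0.94, adjusted p = 0.099, 0.061, 0.070 and 0.062). Egr1 at ZT1 was 811, 879, 969 and 1131 in VSG libraries and 1283, 1335, 1496 and 1507 in sham libraries, the only group pair of a member with VSG lower throughout, and was not called (-0.58 ± 0.32, adjusted p = 0.26). Every VSG library at ZT1 had high B cell or muscle markers, and VSG replicates 1, 2 and 4 at ZT19 had high muscle markers. What part such RNA has in these values was not tested. Without overlap, VSG was higher in 2.84% and lower in 6.13% of all genes at ZT1, higher in 6.49% and lower in 9.22% at ZT7, where no member was, higher in 10.4% at ZT13 and higher in 1.67% at ZT19. The other members gave log2 fold changes between -0.42 (Fosb at ZT7) and 0.72 (Fos at ZT19), none called. No member passed the test of whether the surgery effect differed between times (adjusted p of 1.00 for each, and no gene among all tested), so the times are not shown to differ. For Nr4a1 the unadjusted p of that test was 0.089.

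A 24 h cosine was fitted to each surgery. After sham surgery 1.6% of all genes were called as rhythmic, and 1 of the 9 members was, Nr4a1, with an amplitude (mean to peak) of 0.53 log2 units and a peak at ZT4.9 (adjusted p = 0.0497). Its sham values were 330.4, 429, 560.0 and 637 at ZT1, 492, 517, 564 and 648 at ZT7, then 249 to 373 at ZT13 and 251 to 332 at ZT19. The call lies at the threshold and was lost in 27 of 32 fits that each left out 1 library (adjusted p up to 0.12), and with several other settings, a pseudocount of 5 among them. Egr1 had an amplitude of 0.57 with a peak at ZT3.8 and was not called (adjusted p = 0.12), although it was without sham replicate 4 at ZT13 (0.66, adjusted p = 0.0498). After VSG 0.507% of genes were called and none of the 9. Nr4a1 had an amplitude of 0.27 there (adjusted p = 0.67), and was called without VSG replicate 2 at ZT7 (0.44, adjusted p = 0.047). The difference in rhythm between the surgeries was not called for any member or any gene (Nr4a1 unadjusted p = 0.0398, adjusted p of 1.00), so a different rhythm after VSG was not shown.

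Weight loss within the VSG animals went with Junb and Ier2. Of all genes tested 2.71% had a called slope, 1.77% upward and 0.943% downward, and 2 of the 9 members did, both upward. Junb in the VSG libraries had 278, 159 and 447 in the animals with the 3 lowest weight losses (10.6, 11.05 and 11.9) and 1102, 894 and 3027 in those with the 3 highest (21.2, 22.8 and 23.1). Its slope was 0.22 ± 0.04 log2 units per unit of weight loss (adjusted p = 0.0278). Ier2 in the same animals had 586, 278 and 685 at the low end and 1046, 857 and 1892 at the high end (slope 0.12 ± 0.03, adjusted p = 0.0470). The slope of Fos was 0.17 ± 0.05 (adjusted p = 0.067), and it was called without VSG replicate 1 at ZT7 (0.20, adjusted p = 0.031) or VSG replicate 2 at ZT7 (0.15, adjusted p = 0.041). The slope of Ier3 was 0.07 ± 0.02 (adjusted p = 0.090). Zfp36, Egr1, Nr4a1 and Jun had slopes of 0.06, 0.06, 0.05 and 0.04, and Fosb one of -0.02. Of the related lists, Ier5 (other immediate early factors) and the inhibitors Socs3 and Nab2 rose with weight loss, 1 of 15 and 2 of 21 genes.

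**Figure D3:**
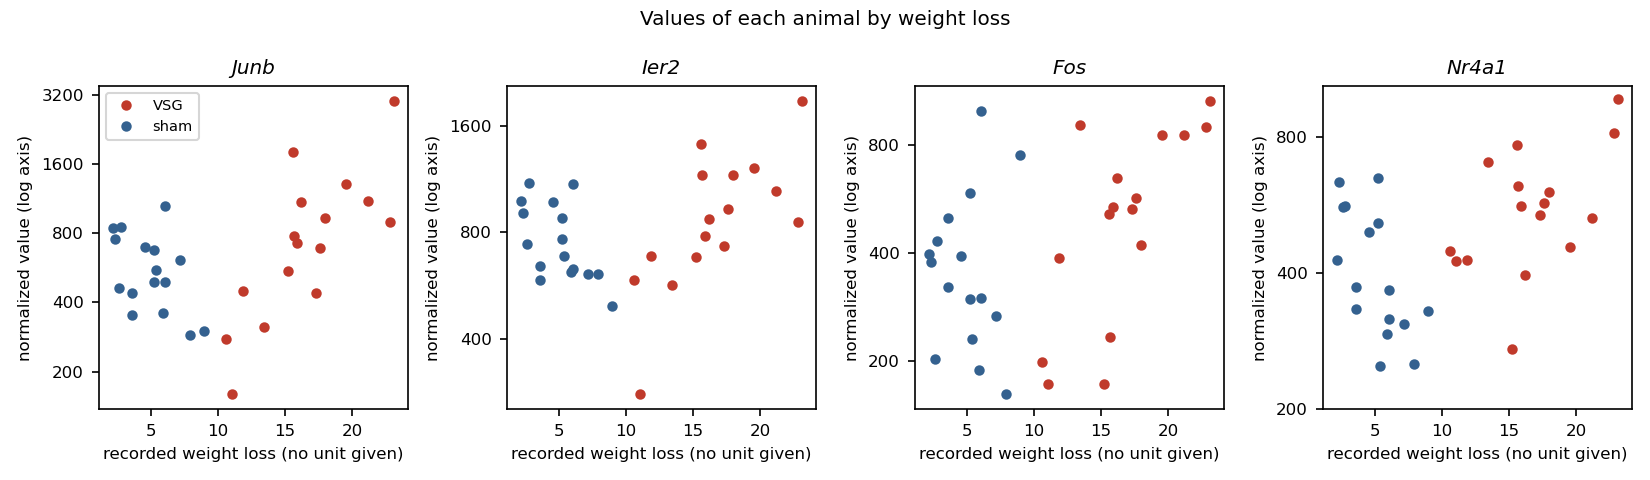
Normalized value of Junb, Ier2, Fos and Nr4a1 in each animal (log axis) against its recorded weight loss, for which the labels give no unit; VSG and sham as points of different colour. Junb rises from 159 to 3027 over the VSG animals, and the surgeries do not overlap in weight loss.

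Both slopes moved with other measures of the libraries. Of 12 macrophage markers 7 also rose with weight loss after VSG, and none of 11 neutrophil markers was called. The median slope was nevertheless larger in the neutrophil list (0.22) than in the macrophage list (0.15), against -0.0004 over all genes. With the macrophage list as a covariate the slopes were 0.12 for Junb (adjusted p = 0.66) and 0.08 for Ier2 (adjusted p = 0.67), and its part in the slopes was not tested. Leaving out the 2 animals with the highest weight loss, which lay farthest from the median, gave 0.24 and 0.13 (adjusted p = 0.29 for each), neither called. The Junb call was lost without replicate 4 at ZT7, replicate 1 at ZT13, replicate 1 at ZT19 or replicate 2 at ZT19 of the VSG group (slopes 0.21, 0.25, 0.24 and 0.23), and that of Ier2 in 12 of 16 such fits (adjusted p up to 0.17).

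After sham surgery no member had a called slope, against 0.00642% of all genes. Fosb was highest at 0.18 ± 0.06 (adjusted p = 0.17), and Junb, Nr4a1 and Ier2 were -0.11, -0.08 and -0.08. Ier3 had a slope of 0.065 ± 0.030 (adjusted p = 0.32), close to its slope after VSG. Fos, Jun, Zfp36 and Egr1 were 0.08, 0.03, 0.01 and -0.03. Without sham replicate 4 at ZT1, the sham animal with the highest weight loss (8.96), the slopes of Junb, Nr4a1 and Ier2 were 0.0013, -0.050 and -0.0045. The difference of slopes, VSG minus sham, was 0.33 ± 0.09 for Junb (adjusted p = 0.0735) and 0.20 ± 0.06 for Ier2 (adjusted p = 0.0824), with 0.616% of all genes called, 0.192% higher and 0.423% lower, and no member among them. Without sham replicate 4 at ZT1 these differences were 0.22 for Junb and 0.12 for Ier2 (adjusted p of 1.00 for each). Both differences were called without sham replicate 2 at ZT13 (0.38 for Junb and 0.21 for Ier2, adjusted p = 0.029 and 0.046) and without sham replicate 4 at ZT13 (0.35 and 0.21, adjusted p = 0.033 and 0.038).

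Junb and Ier2 have transcripts rich in G and C, 62.6% and 60.9%, more than in 98.8% and 97.4% of the genes tested (median 49.7%). The other members have 57.3% (Egr1), 57.0% (Nr4a1), 56.0% (Fosb), 55.5% (Jun), 54.4% (Ier3), 54.1% (Zfp36) and 51.9% (Fos). The libraries differed in how values tilted with GC content, from -0.26 to 0.22 log2 units per 10% GC. With group means taken off, this tilt correlated with Junb (r = 0.63, rho = 0.70, permutation adjusted p = 0.0080 for r), Ier2 (r = 0.62, rho = 0.69, adjusted p = 0.0080) and Jun (r = 0.60, rho = 0.59, permutation adjusted p = 0.013) over 32 libraries, and with none of the other 6 at an adjusted p under 0.05. Without the 2 libraries of the most extreme tilt r was 0.67, 0.67 and 0.52. For Egr1, Nr4a1 and Fosb, which have more GC than Jun, r over all 32 libraries was -0.06, -0.06 and -0.19. With the tilt as a covariate the VSG slopes were 0.17 for Junb (adjusted p = 0.054) and 0.09 for Ier2 (adjusted p = 0.081). Ier3 and Nr4a1 over all times were 0.61 and 0.47 with the tilt as a covariate, both still called. The tilt was computed from gene values of the same libraries. Its origin and its part in the Junb and Ier2 slopes were not tested.

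**Figure D4:**
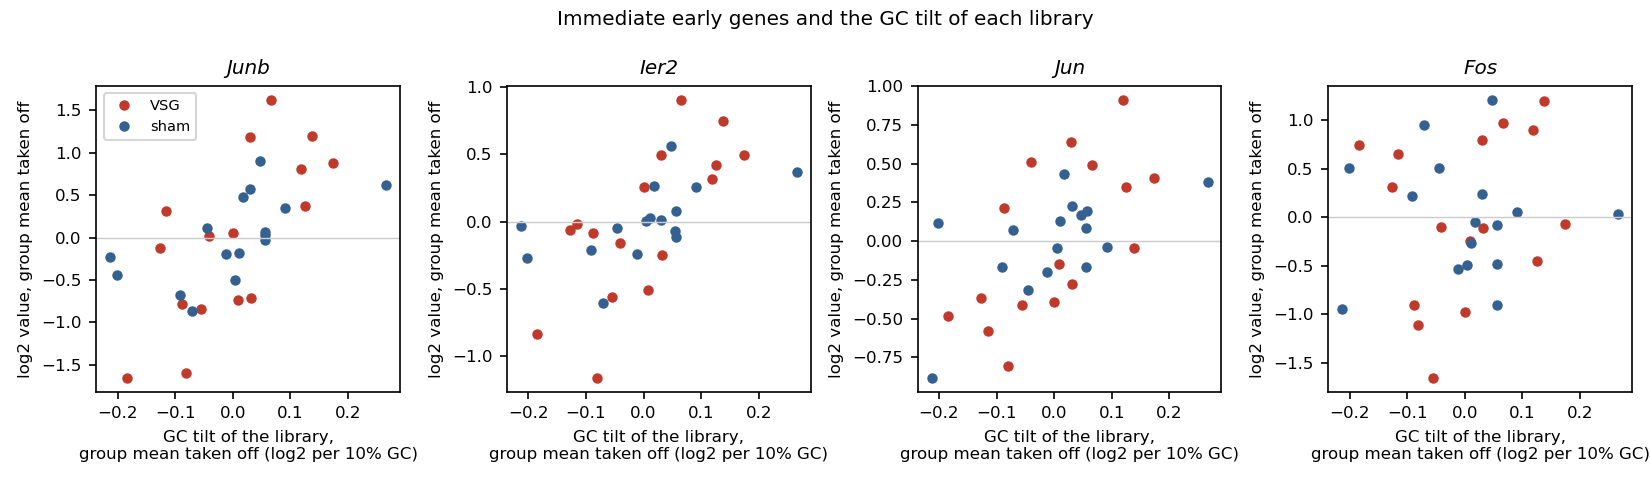
Log2 value of Junb, Ier2, Jun and Fos with the group mean taken off, against the GC tilt of each library (slope of log2 value on GC content, group mean taken off), 32 libraries. Junb, Ier2 and Jun rise with the tilt (r = 0.63, 0.62 and 0.60) and Fos does so little (r = 0.12).

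Between animals of a group, several members varied widely. The SD of log2 values within groups was 0.88 for Junb, 0.83 for Fos, 0.50 for Ier2, 0.48 for Egr1 and 0.47 for Jun, at the 99.8th, 97.6th, 96.2nd, 96.4th and 95.8th percentile of the 500 genes nearest in mean level. Fosb (0.65), Nr4a1 (0.38), Zfp36 (0.32) and Ier3 (0.35) lay at percentiles 83.6, 83.6, 85.4 and 70.6. The median SD over all genes was 0.26. By surgery, the SD of Junb was 1.11 in VSG libraries and 0.55 in sham libraries, and that of Fos was 0.95 in VSG libraries and 0.68 in sham libraries. Ier2 had an SD of 0.64 in VSG libraries (96.4th percentile) and 0.31 in sham libraries (83.6th percentile), and Ier3 one of 0.43 in VSG libraries (84.2nd percentile) and 0.24 in sham libraries (39.2nd percentile). All 9 SDs were higher in VSG libraries, and the difference in spread was not tested. High B cell or muscle markers were also more frequent in VSG libraries. Without the libraries high in either, Fosb lay at percentile 98.4 and Nr4a1 at 94.0. In that set Ier3 and Zfp36 lay at 85.0 and 82.2, and Jun had an SD of 0.33 (percentile 91.6). No VSG library at ZT1 remains in it.

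Correlations between members were computed for each pair, with no comparison with pairs of other genes. Of 36 pairs, 32 had a positive r between values with group means taken off, with a median r of 0.37, and 5 were called by r and 5 by rho, 4 of them by both. Junb and Ier2 were the closest pair (r = 0.94, rho = 0.92, permutation adjusted p = 0.0004 for r), with r = 0.95 within the VSG libraries and r = 0.87 within the sham libraries. They lie 314 kb apart on chromosome 8. Fos and Egr1 gave r = 0.76 and rho = 0.73 (permutation adjusted p = 0.0004), Egr1 and Nr4a1 r = 0.70 and rho = 0.60 (permutation adjusted p = 0.019), and Ier3 and Zfp36 r = 0.58 and rho = 0.55 (permutation adjusted p = 0.024). Jun and Junb gave r = 0.61 (permutation adjusted p = 0.035) and rho = 0.58 (adjusted p = 0.054). Without the 2 libraries farthest in the first gene of each pair, r was 0.91, 0.66, 0.56, 0.60 and 0.63 for these 5 pairs in that order. Within the VSG libraries 2 pairs were called and within the sham libraries 1.

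**Figure D5:**
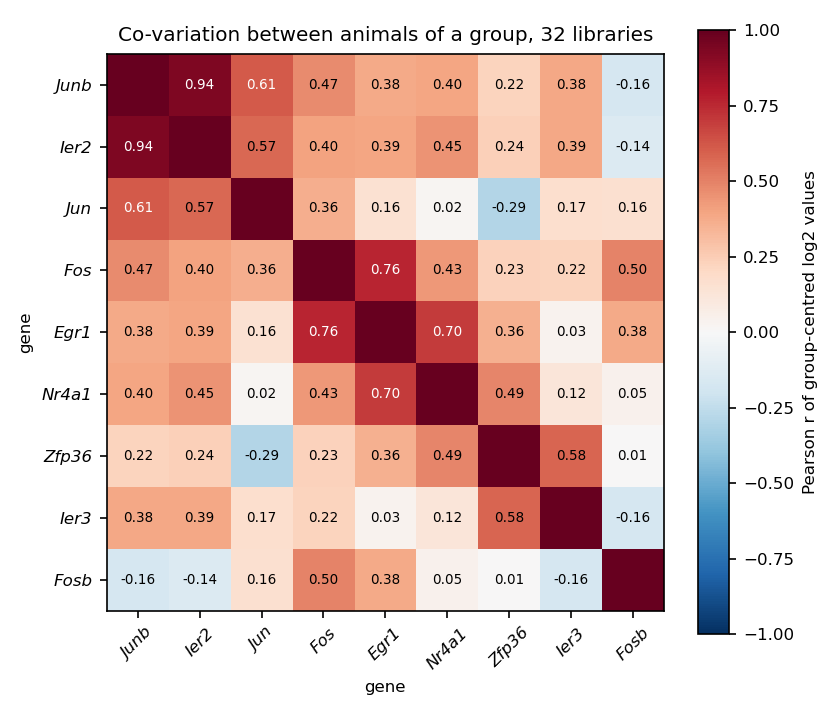
Pearson r between the log2 values of each pair of immediate early genes with group means taken off, over 32 libraries; colour and number give r. Junb with Ier2 (0.94), Fos with Egr1 (0.76) and Egr1 with Nr4a1 (0.70) stand out, and Fosb has r below 0.2 with 6 of the other 8.

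Genes with the most similar pattern over the 32 libraries, with group means taken off, were sought among 12069 genes with a mean of at least 50. Fos was most like Il1rn (r = 0.91), C3ar1 (0.90) and Cd68 (0.89), genes of macrophages. Egr1 was most like Dusp6 (0.83), the phosphatase of ERK, Zfp36 like Srgn (0.84) and Csrnp1 (0.82), and Nr4a1 like Bcl10 (0.75). Junb was most like Tgfb1 (0.96), Ier2 like Cactin (0.91), Jun like Nfix (0.92), Ier3 like Alas2 (0.77) and Fosb like Edn1 (0.63). Of the 5 genes most like Jun, Nfix has a GC content of 57.1% and the other 4 (Lzts2, Mex3d, Smad6 and Hic1) of 60.8 to 64.7%. The 5 most like Junb range from 52.5% (Tgfb1) to 65.6% (Crlf2). Those most like Ier2 range from 50.8% (Ube2j2) to 64.3% (Ssbp4). What part GC content has in these likenesses was not tested. The mean of the 9 was most like Cxcl1 (0.85), a chemokine gene, and Nab2 (0.83), which encodes a co-repressor of EGR1. These are descriptions over libraries that share depth and composition.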

How the data were processed

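RNA of 32 libraries was sequenced from a TruSeq version 2 kit, per the labels' protocols. The submitters' processing notes name DESeq2 1.24.0, R 3.6.3, featureCounts 1.5.0-p1, STAR 2.5.2a, bcl2fastq 2.17.1.14 and the build mm10, with no roles and no strand setting. In the deposited table the values (unit: signal) look like reads per gene over 1 size factor for each library, since 100% of the values of each library were whole multiples of 1 step within a tolerance of 0.001. The other deposited tables held the same values for the 17784 genes compared. Replicate libraries differed by a chi-square per degree of freedom of 21.1 to 186 over 48 pairs, so none was counted with another.

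In R 4.3.3, limma 3.58.1 with its trend option was run on log2(value + 1) of 15588 genes with a mean of at least 10, adjusted by Benjamini-Hochberg over all of them and called at an adjusted p under 0.05. Models were 8 group means, a 24 h cosine per surgery, and a slope on weight loss with a mean per time. Correlations used 100000 permutations within groups, two-sided. Recovered whole reads were also tested with edgeR 4.0.16 and DESeq2 1.42.0, as alternatives. GC content is that of the longest transcript in the GENCODE annotation of the same build, and was found for 96.7% of genes tested. Exon lengths were taken from the same annotation, within the coordinates of the table. The fits were tested on simulated counts.

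The 9 genes and the lists of related genes and markers were chosen with earlier results of these data known, and support nothing by being chosen. All 9 were to be named in every comparison, and from each list the 2 called genes at either end of the fold changes. Of the genes so named, 1 is not reported here. The GC and macrophage covariates, the percentile of 90 used to count widely varying members, the 1.5-times limit on their SD, the motifs, the promoters printed and the genes plotted against weight loss were chosen after values were seen. The search for similar genes also left out clone names. The replicate numbers were given in accession order. P-values of the fits set an effect against the variation between these animals, and those of correlations come from the permutations within groups.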

Additional observations from a re-analysis of the deposited data

Results flagged for a closer look

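Of 72 groups of 4 libraries (9 genes in 8 groups), 5 held a library whose gap to the nearest other was large against the range of the group on the log2 scale. Chance flags about 1 in 20 groups. Fosb in VSG replicate 3 at ZT19 was 89.2, against 42.3 to 44.8 in the other 3 libraries. Egr1 in VSG replicate 4 at ZT19 was 423, against 785 to 876 in the others. Ier2 in sham replicate 4 at ZT13 was 1099, against 630.0 to 686 in the others, and Zfp36 in the same library was 3007, against 1989 to 2093. Zfp36 in VSG replicate 1 at ZT19 was 2546, against 2097 to 2121 in the others.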

How the results depend on the processing

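Of 1515 values of single genes under other settings 1405 kept their direction and their side of the threshold, 48 lost and 13 gained a call, 47 changed direction and 2 moved. The counts of called members moved as follows, and the causes were not tested. For VSG against sham and the slope after VSG, counts without the 5 libraries with high B cell lists, or the 7 with high muscle lists, are not given. Those fits leave VSG replicate 2 alone at ZT1 or VSG replicate 3 alone at ZT19, and they stay among the 1515 values. Over all times the count was 0 with weight loss as a covariate, which cannot be told apart from surgery. It was 1 with the macrophage list as a covariate (Egr1). At ZT1 it was 0 with the B cell and muscle lists as covariates and with the 8 libraries of that time alone. At ZT7 it was 1 with array weights (Ier3), whose estimation stopped before it converged. At ZT13 it was 1 with quantile normalization and with the lists as covariates (Nr4a1). For the sham rhythm it was 0 with a pseudocount of 5, no filter, TMM, quantile normalization, the covariates, without either set of libraries, with an F test over 4 times and with the macrophage list, and 2 with array weights (Egr1 and Nr4a1). For the slope after VSG it was 1 with no filter, quantile normalization and edgeR (Junb), and 4 with DESeq2 (Fos, Ier2, Ier3 and Junb). That count was 0 without the 2 farthest animals and with GC tilt or the macrophage list. For the slope difference it was 2 with the covariates and with DESeq2 (Ier2 and Junb). Called pairs were 2 within VSG, 1 within sham and 3 without the libraries that stood apart. TMM and quantile normalization moved the median of all genes by -0.005 and -0.011 log2 units.

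Leaving out 1 library at a time gave 2 to 3 called members over all times (Fosb the added one), 0 to 1 at ZT1 and at ZT7, 0 to 2 at ZT13, 0 at ZT19 and for the interaction, 0 to 1 for each rhythm, 0 for the rhythm difference, 0 to 2 for the slope after VSG, 0 for the slope after sham surgery and 0 to 2 for the slope difference. Ier3 and Nr4a1 over all times kept their calls in all 32 such fits (0.57 to 0.71 and 0.40 to 0.55). No paired analysis was possible because the replicate numbers were given in accession order and pair no animals.

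Single values that changed direction, in log2 units, none of them called before, except Ier3 over all times, were these. With the B cell and muscle lists as covariates, the values were Jun 0.20 and Zfp36 -0.094 over all times, Zfp36 -0.075 and Nr4a1 -0.026 at ZT1, Jun 0.16 at ZT13, Fosb 0.0028 for the slope after VSG, Jun -0.012 for the slope after sham surgery. With DESeq2 on whole reads, the values were Jun 0.030 over all times, Egr1 0.0031 at ZT7, Zfp36 0.024 at ZT13. With array weights, the values were Jun -0.35 and Nr4a1 -0.083 at ZT1, Fosb 0.21 at ZT13, Fosb 0.016 at ZT19, Fos -0.035 for the slope after sham surgery. With edgeR on whole reads, the values were Jun 0.028 over all times, Egr1 0.010 at ZT7, Zfp36 0.023 at ZT13. With the macrophage list as a covariate, the values were Fos -0.57, Junb -0.31, Ier2 -0.13 and Zfp36 -0.038 over all times, Jun -0.031 and Egr1 -0.028 for the slope after VSG. With no time term, the values were Fosb 0.0085 for the slope after VSG. With quantile normalization, the values were Jun -0.00044 for the slope difference. With weight loss as a covariate, the values were Fos -1.28, Junb -1.37, Ier2 -0.69, Ier3 -0.19 and Zfp36 -0.50 over all times. Without the 2 farthest animals, the values were Fos -0.11 and Junb 0.0071 for the slope after sham surgery. Without the 5 libraries with high B cell lists, the values were Jun 0.18 and Zfp36 -0.056 over all times, Jun 0.034 at ZT13, Jun -0.0019 for the slope after sham surgery. Without the 7 libraries with high muscle lists, the values were Jun 0.019 over all times, Jun -0.26, Junb -0.10 and Nr4a1 -0.00080 at ZT1, Junb -0.0026 and Zfp36 0.11 at ZT13, Fosb 0.52 and Egr1 0.26 at ZT19, Fos -0.11 for the slope after sham surgery, Jun -0.039 for the slope difference. In the fits without those 7 libraries VSG at ZT19 is replicate 3 alone, whose Fosb value of 89.2 is flagged above. Without the 5 libraries VSG at ZT1 is replicate 2 alone. Among values that changed direction when 1 library was left out, the lowest and highest are given. Over all times these were Jun -0.10 to 0.040 and Zfp36 -0.028 to 0.081. At ZT1 these were Fos -0.077 to 0.56, Fosb -0.48 to 0.066, Jun -0.28 to 0.17 and Nr4a1 -0.057 to 0.26. At ZT7 these were Jun -0.16 to 0.16, Egr1 -0.42 to 0.24, Ier2 -0.17 to 0.41, Zfp36 -0.015 to 0.18 and Nr4a1 -0.066 to 0.55. At ZT13 these were Fosb -0.57 to 0.013, Jun -0.33 to 0.034, Egr1 -0.34 to 0.15 and Zfp36 -0.29 to 0.14. At ZT19 these were Jun -0.19 to 0.29, Junb -0.16 to 0.76, Egr1 -0.17 to 0.19 and Ier2 -0.21 to 0.42. For the slope after VSG these were Fosb -0.036 to 0.021. For the slope after sham surgery these were Fos -0.11 to 0.14, Jun -0.0019 to 0.057, Junb -0.15 to 0.0013 and Zfp36 -0.0084 to 0.053. For the slope difference these were Jun -0.018 to 0.041 and Ier3 -0.010 to 0.025. Depth limits Fosb most, with 34 reads in its shallowest library.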
